A study of Mus musculus with 42 samples.

Results

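Undiluted acetophenone (100% ACT) was compared directly with 1% ACT, litter by litter, for every intact odorant receptor (OR) gene. The comparison uses 6 of the 42 libraries of the series, 3 per concentration, and all 1088 intact ORs listed for both concentrations. It was chosen by concentration label only, so no measured value entered the choice. The mice were C57BL/6J, 20 to 22 days old. Each mouse was exposed for 1 h to ACT diluted in water (v/v), or to undiluted ACT, on blotting paper in a cassette. RNA bound to phosphorylated ribosomal protein S6 was then immunoprecipitated from the olfactory epithelium and sequenced (pS6-IP-Seq). Replicates were littermates of the same sex, and a litter number joins one 1% mouse, one 100% mouse and one no odor mouse. The same 3 no odor mice serve both concentrations, and their values are given for reference. The tables hold ORs alone, so markers of olfactory sensory neurons (OSNs) or of other cell types could not be checked. In such bulk tissue, more active OSNs of a type and more captured RNA per OSN cannot be told apart.

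Each mature OSN expresses a single OR gene, and its axon joins those of other OSNs with the same OR in the olfactory bulb. When an odorant binds its OR, the OSN fires and ribosomal protein S6 becomes phosphorylated, so that mRNA of ORs in active OSNs is enriched in the precipitate. ACT is a ketone with a floral smell that is widely used to study ORs, including Olfr160 (M72) and Olfr151 (M71). A stronger stimulus is known to recruit ORs of lower affinity, while prolonged or strong stimulation can also silence OSNs.

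Counts on ORs ran from 66016 to 69789 per library at 1% ACT, from 45655 to 66929 at 100% ACT and from 37012 to 52708 without odor. Values below are normalized counts, that is, counts divided by each library's effective size and scaled to a common 56710. A pair of libraries stood apart. The 1% ACT library of litter 1 was high in ORs that respond to TMT, the other odorant of the study (2,5-dihydro-trimethylthiazoline). The 30 ORs most raised by 1% TMT took 17.2% of its normalized counts, against 4.76% and 5.69% in the other 1% ACT libraries. At 100% ACT they took 8.33%, 5.34% and 6.3% in litters 1 to 3, and without odor 3.79% to 4.07%. In the 1% ACT library of litter 1, ORs that an earlier pS6-IP-Seq study (Jiang et al.) lists for ACT stood at their no odor level by their median. The median log2 ratio to the no odor mean was -0.03 there over 79 of these ORs with enough counts, against 0.31 and 0.27 in the other 1% ACT libraries. Olfr923, an OR for ACT, had 61.4 normalized counts in it, against 589.9 and 1293 in the others and 43.0 to 73.1 without odor. Olfr145 had 46.3, against 207 and 380.3 and a no odor range of 33.2 to 82.9. Other values were less apart. By share, the Jiang et al. list took 12.8% of this library, against 14.5% and 18.8% in the other 1% ACT libraries and 9.96% to 11.0% without odor. ORs activated by ACT in vitro had a median log2 ratio to no odor of 0.13 in it, against 0.12 and 0.23. The library thus goes against its label in the TMT ORs, in Olfr923 and in Olfr145, but not in every measure. It is the baseline of litter 1 in what follows, as the library labelled 1% ACT. The 100% ACT library of litter 3 was high in the 86 ORs of the Jiang et al. list. They took 28.0% of its normalized counts, against 14.8% and 14.6% in litters 1 and 2 at 100% ACT. Calls are therefore given with and without each litter, and beyond that the part of these libraries in the results was not tested.

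A group of 6 ORs was higher at 100% than at 1% ACT, and all of them stood at or near their no odor level at 1%. They were Olfr895, Olfr506, Olfr397, Olfr1043, Olfr1449 and Olfr1065, with fold changes from 3.64 to 4.95 (n = 3 litters, edgeR's quasi-likelihood test with litter as a block). They make up 0.551% of the 1088 ORs tested. All 6 are class II ORs, as are 956 of the 1088 tested. From dissected epithelium 5 of them were called dorsal, as were 415 of the 1088. In each of the 6, all 3 values at 100% ACT lay above all 3 at 1% ACT and above all 3 without odor. Values of 100% ACT lay above all of 1% ACT in 8.46% of the ORs tested. The share above all no odor values was not taken over all ORs. Choosing ORs for a high value at 100% ACT favors both patterns.

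Olfr397 (chr11:73960817-73967812, GRCm38) had 64.3, 100.1 and 87.7 normalized counts at 1% ACT in litters 1 to 3. At 100% ACT it had 257, 271 and 825, and without odor 69.9, 68.6 and 82.0. Every litter rose, and litter 3 by the most. The log2 fold change was 2.22 ± 0.41 (SE, adjusted p = 0.0371). Olfr1043 (chr2:86161890-86167522) had 17.0, 17.6 and 26.9 at 1% ACT and 49.1, 59.8 and 215 at 100% ACT. Without odor its values were 22.9, 17.2 and 16.6, so that the 1% mice lay within or just above the no odor range. The change was 2.14 ± 0.40 log2 (adjusted p = 0.0371).

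Olfr895 (chr9:38267851-38269735) had 17.0, 21.4 and 29.5 normalized counts at 1% ACT and 72.3, 62.3 and 193 at 100% ACT, with 17.5, 41.0 and 25.5 without odor. Its log2 fold change was 2.13 ± 0.37 (adjusted p = 0.0371). Olfr895 is also activated by ACT in vitro and is among the ORs whose mRNA falls after long ACT exposure (DREAM, a method that reads OR activation from falling mRNA). Olfr1449 (chr19:12930840-12935752) was the lowest of the 6 in counts, with 9, 6 and 17 raw counts at 1% ACT and 21, 16 and 112 at 100% ACT. Its log2 fold change of 2.31 ± 0.44 (adjusted p = 0.0371) therefore rests on few reads in 5 of the 6 libraries.

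Olfr506 and Olfr1065 differed from the other 4 in that litter 3 did not have the highest value. Olfr506 (chr7:108610787-108615340) had 52.0, 48.9 and 26 normalized counts at 1% ACT and 218, 127 and 117 at 100% ACT. Its no odor values were 43.0, 82.0 and 45.4. The log2 fold change was 1.86 ± 0.34 (adjusted p = 0.0371). The paper discusses Olfr506 as an OR for TMT, not ACT. Olfr1065 (chr2:86443958-86450591) had 65.2, 59.6 and 26 at 1% ACT, 283, 134 and 261 at 100% ACT, and 39.0, 89.6 and 55.4 without odor. Its log2 fold change was 2.18 ± 0.43 (adjusted p = 0.0429). Of its 50-base stretches, 14.5% also occur in another OR, so part of its count could belong to a relative. This share was 8.2% in Olfr506 and under 2% in the other 4.

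**Figure D1:**
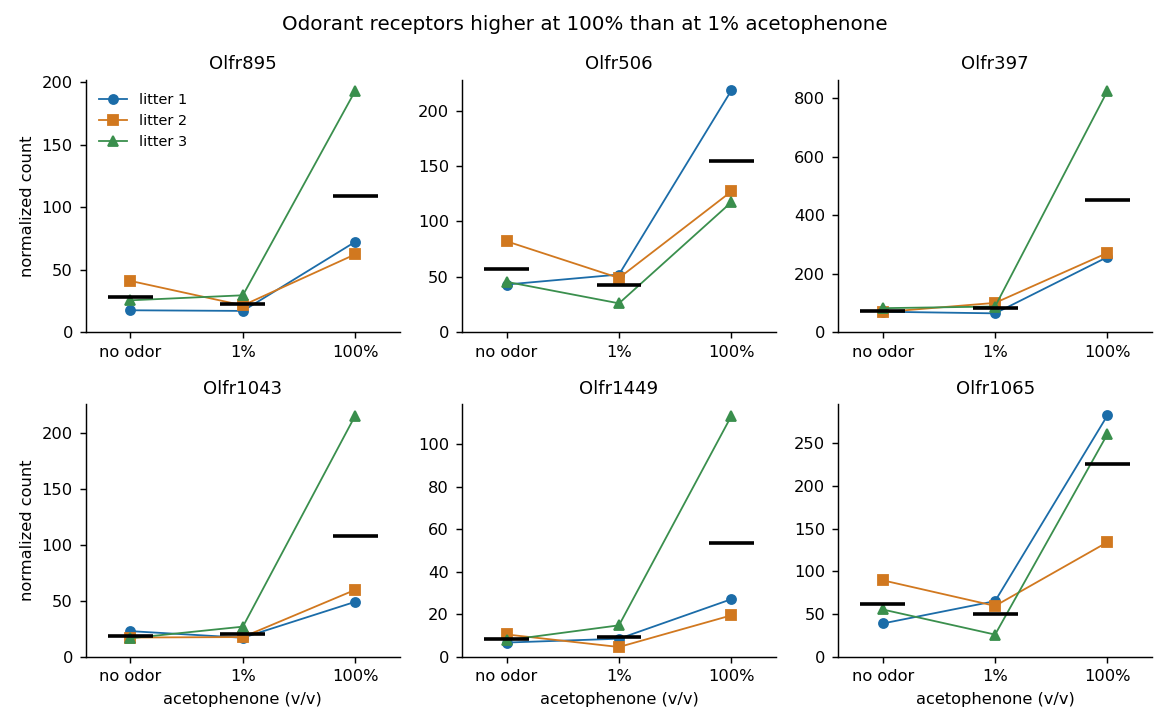
Normalized counts (y axis) of the 6 ORs called higher at 100% ACT, for no odor, 1% ACT and 100% ACT (x axis). Each colored line with its markers is a litter and black bars are means of 3 mice. In every panel all 100% values lie above all 1% values, and litter 3 stands highest in Olfr895, Olfr397, Olfr1043 and Olfr1449.

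These calls depend on the litters and on the model. With all litters, the quasi-likelihood test called none with DESeq2's size factors (smallest adjusted p = 0.0763), with total OR counts as the scaling (0.0522), after filterByExpr (0.0689), without the litter block (0.177) or with all 18 ACT libraries in the fit (0.0853). The likelihood ratio test called 55 higher and DESeq2 called 17, and both included the 6. All 6 ORs kept their direction without any one litter, with log2 fold changes from 1.59 to 2.65. Without litter 2 or without litter 3 the test called none, and the smallest adjusted p was 0.414 and 0.841. Counted by an unadjusted p below 0.05, 61 ORs higher and 25 lower were then left without litter 2, and 41 and 17 without litter 3. Without litter 1, which holds the 1% library high in TMT ORs, the test called 84 ORs higher (7.72%) and 6 lower (0.551%), and the 84 included the original 6. With 2 litters, 1 residual degree of freedom is left, and such p-values can err either way.

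Changes were most alike in litters 2 and 3. Across the 665 ORs that averaged 20 or more counts, the log2 ratio of 100% to 1% ACT had a Pearson r of 0.494 between litters 2 and 3, 0.275 between litters 1 and 3, and 0.168 between litters 1 and 2. These are correlations across ORs that share their libraries, given as a description. The spread of the ratios was widest in litter 3, with an SD of 1.05 log2 against 0.81 and 0.76 in litters 1 and 2. In litter 3, 122 ORs had a ratio above 2 and 36 a ratio below 0.5. In litter 1 the numbers were 71 and 54, and in litter 2 they were 75 and 44.

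**Figure D2:**
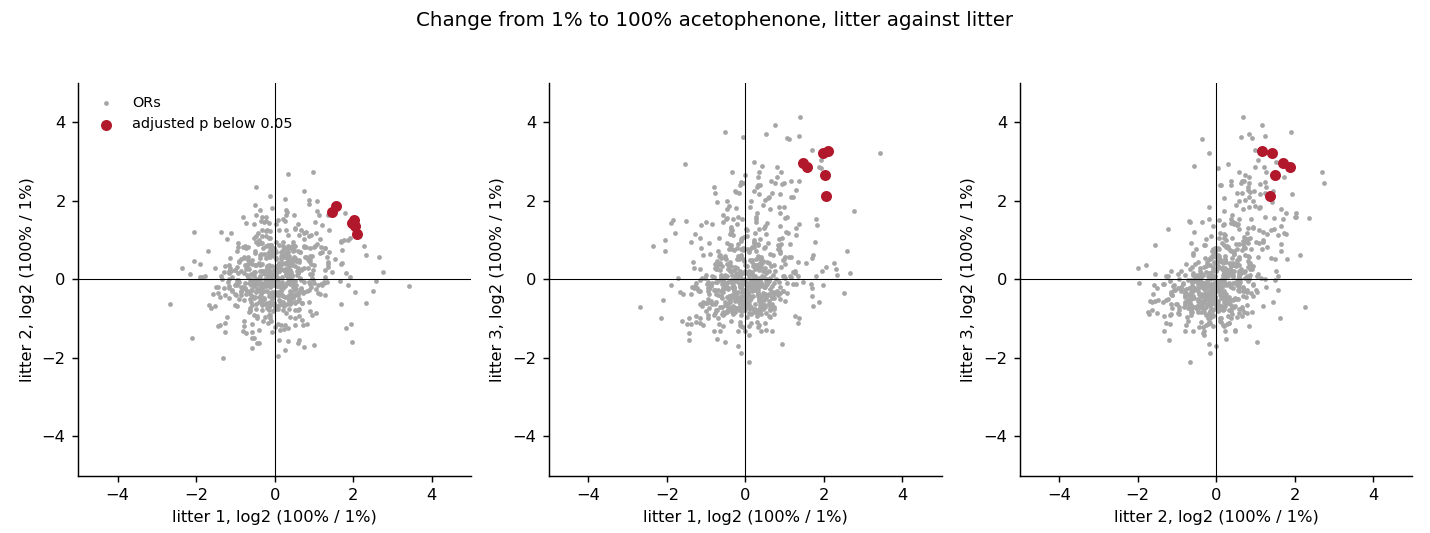
Log2 ratio of 100% to 1% ACT in one litter (x axis) against another (y axis), for 665 ORs averaging 20 or more counts (gray) and the 6 called ORs (red). The 6 lie in the upper right of each panel, and the cloud is most tilted for litters 2 and 3 (r = 0.494).

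By unadjusted p below 0.05, 113 ORs (10.4%) stood higher at 100% ACT and 26 (2.39%) stood lower. The split depended on the scaling. It was 93 higher and 42 lower with DESeq2's size factors in edgeR, and 92 and 43 with the total OR count as the only scaling. Of the 113, 112 had a mean at 100% ACT above the no odor mean, while 49 had a 1% mean above it. Choosing ORs for a higher value at 100% than at 1% ACT favors a high 100% mean and a low 1% mean. The same counts were not taken over all ORs. The median log2 fold change of all ORs was 0.01. Fold changes were noisiest where counts were low, with an SD of 1.25 log2 among ORs with mean counts up to 12.7, against 0.65 to 0.67 among ORs with higher counts.

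The next ORs in size were higher in every litter without passing the adjusted threshold. Olfr283 (chr15:98377699-98380946), a ventral OR, had 21.7, 6.1 and 11.3 normalized counts at 1% ACT and 43.9, 46.4 and 66.8 at 100% ACT. This gave a log2 fold change of 2.10 ± 0.45 (adjusted p = 0.0579). Olfr1451 and Olfr1457 lie close to Olfr1449 on chromosome 19 and had log2 fold changes of 2.02 ± 0.45 and 2.07 ± 0.46 (both adjusted p = 0.0641). Olfr1045, a neighbor of Olfr1043 on chromosome 2, had 30.2, 65.7 and 53.0 at 1% ACT and 80.1, 158 and 677 at 100% ACT. Olfr937 on chromosome 9 had 14.2, 24.5 and 15.6 at 1% ACT and 24.5, 56.2 and 252 at 100% ACT. In both, the third litter carried most of the difference. The adjusted p was 0.0734 for Olfr1045 and 0.123 for Olfr937.

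No OR was called lower at 100% ACT by the quasi-likelihood test, while 26 had an unadjusted p below 0.05. edgeR's likelihood ratio test called 4 lower (Olfr120, Olfr740, Olfr744 and Olfr901), and DESeq2 called Olfr740 and Olfr901. Olfr740 (chr14:50445545-50456933), a ventral OR, had 784, 461 and 1002 normalized counts at 1% ACT and 287, 200.3 and 339.8 at 100% ACT. Without odor it had 471, 776 and 1000.2. All 3 mice at 100% ACT thus lay below all 6 others (100% ACT lay below all of 1% ACT in 6.43% of the ORs tested), and the log2 fold change was -1.40 ± 0.31 (adjusted p = 0.0641).

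Olfr901 and Olfr744 had another pattern, with 1% ACT above both no odor and 100% ACT. Olfr901 (chr9:38429455-38432682) had 63.2, 67.7 and 73.1 normalized counts without odor, 89.8, 91.7 and 205 at 1% ACT, and 33.6, 40.3 and 92.0 at 100% ACT. Its log2 fold change from 1% to 100% was -1.25 ± 0.32 (adjusted p = 0.112). Olfr744 (chr14:50614879-50619839) had 41.7, 27.6 and 35.4 without odor, 44.4, 75.7 and 192 at 1% ACT, and 18.1, 29.3 and 99.1 at 100% ACT. From 1% to 100% it changed by -1.18 ± 0.33 log2 (adjusted p = 0.118). Within each litter both ORs were lower at 100% ACT, although the values of the 2 groups overlap. Of the 10 ORs with the lowest fold changes that held in every litter, 3 had all their 1% values above all no odor values (Olfr901, Olfr744 and Olfr1406). Another 4 had all their 100% values below all no odor values (Olfr740, Olfr707, Olfr799 and Olfr1105). Over all ORs tested these shares were 4.14% and 7.44%, and choosing ORs for a low fold change favors both patterns. The other 3 were Olfr120, Olfr56 and Olfr1425, and the adjusted p of the 10 ran from 0.0641 to 0.293.

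Without litter 1, the 6 ORs called lower were Olfr740, Olfr901, Olfr744, Olfr923, Olfr1377 and Olfr1318. Olfr1377 and Olfr1318 are named because of this call, after their values were seen. Olfr1377 had 202 and 503 normalized counts at 1% ACT in litters 2 and 3, against 81.8 and 234 at 100% ACT. In litter 1 it stood at 43.5 and 47.8, next to 44.4, 48.6 and 46.5 without odor. Olfr1318 had 58.8 and 90.3 at 1% ACT in litters 2 and 3 and 36.6 and 20.2 at 100% ACT, while in litter 1 it had 51.0 and 54.2.

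The paper discusses 8 ORs for ACT. Olfr30, Olfr898, Olfr907 and Olfr376 were picked there at 100% or 1% ACT, so for them the libraries compared here are not independent evidence. Olfr923, Olfr983, Olfr1427 and Olfr901 were picked at 0.01% ACT, in other mice of the study. Of the 8, none was called, 2 were higher and 2 lower at an unadjusted p below 0.05, and 2 were higher and 2 lower in every litter. Over all ORs, 10.4% were higher and 2.39% lower at that p, and 17.3% were higher and 16.9% lower in every litter. Olfr923 (chr9:38826545-38830300) had 61.4, 589.9 and 1293 normalized counts at 1% ACT and 103, 178 and 701 at 100% ACT. Without odor it had 43.0, 57.2 and 73.1. It was lower at 100% ACT in litters 2 and 3 and higher in litter 1, where the library labelled 1% ACT was close to no odor. The log2 fold change was -0.67 ± 0.44 (adjusted p = 0.577), and -1.30 without litter 1 (adjusted p = 0.0148). Olfr983 had 80.3, 129.9 and 241 at 1% ACT and 47.8, 50.1 and 161 at 100% ACT, lower in every litter (log2 fold change -0.89 ± 0.34, adjusted p = 0.26). Its no odor values were 72.6, 94.3 and 88.6.

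Olfr376, which the paper discusses for both odorants and which is among the ORs raised by 1% TMT, was well above no odor at both concentrations and did not differ detectably between them. It had 829.7, 312 and 762 normalized counts at 1% ACT, 459.7, 271 and 808 at 100% ACT, and 113, 114 and 114 without odor. The log2 fold change was -0.32 ± 0.33 (adjusted p = 0.77). Olfr1427 had 483, 339 and 499 at 1% ACT and 630.2, 219 and 314 at 100% ACT, which spans its no odor range of 389.8 to 414 (adjusted p = 0.8). Olfr30 (chr11:58454105-58462270) had 417, 146 and 256 at 1% ACT, 772, 556 and 1166 at 100% ACT, and 223, 188 and 213 without odor. It was higher in each litter, by 1.67 ± 0.36 log2 (adjusted p = 0.0579).

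Olfr898 and Olfr907 had few reads. Olfr898 had 11, 8 and 15 raw counts at 1% ACT and 30, 18 and 39 at 100% ACT (log2 fold change 1.76 ± 0.42, adjusted p = 0.0757). Olfr907 had 0, 6 and 1 raw counts at 1% ACT, 7, 2 and 7 at 100% ACT, and none in the 3 no odor libraries. Its adjusted p was 0.558.

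**Figure D3:**
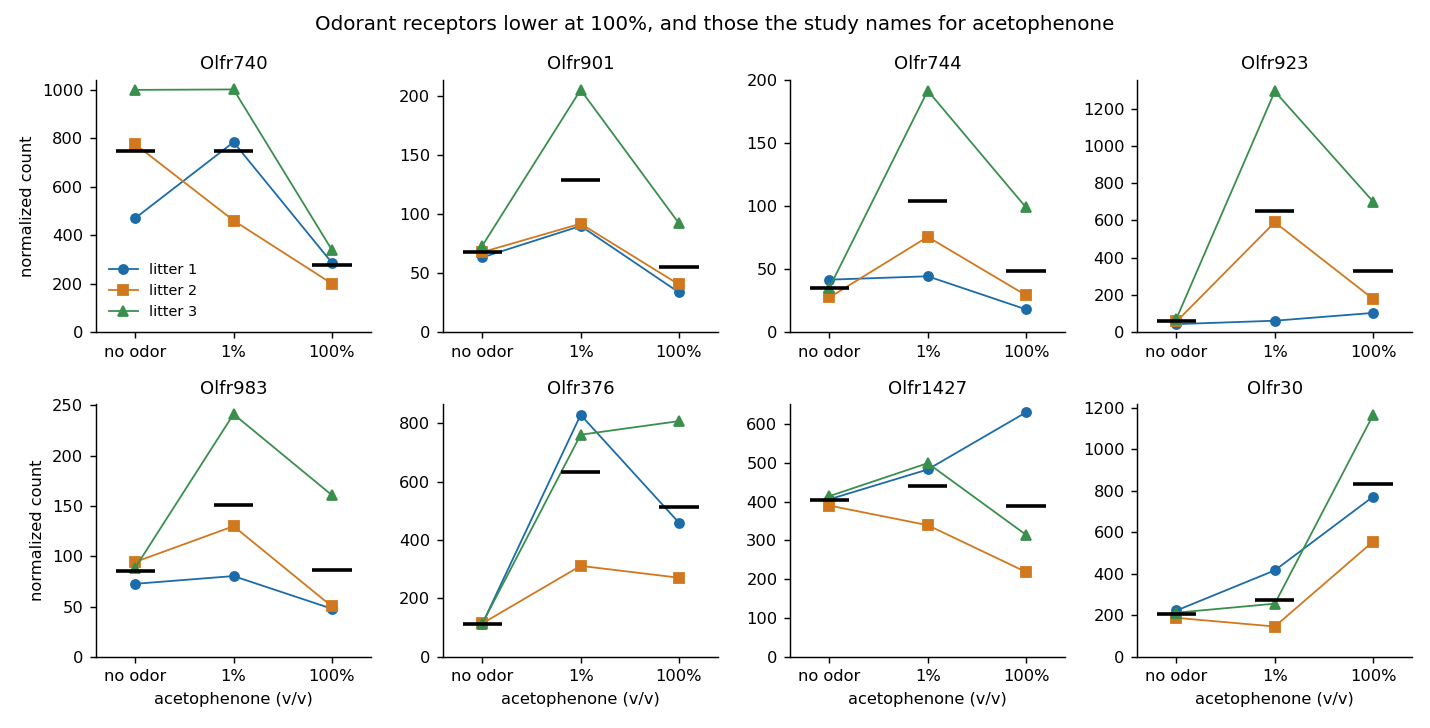
Normalized counts (y axis) for no odor, 1% ACT and 100% ACT (x axis) of Olfr740, Olfr901 and Olfr744, which were lower at 100% ACT in every litter, and of Olfr923, Olfr983, Olfr376, Olfr1427 and Olfr30, which the paper discusses. Colored lines are litters and black bars are means of 3 mice. Olfr901, Olfr744, Olfr923 and Olfr983 have their highest mean at 1% ACT, while Olfr30 has it at 100% ACT.

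Among the 3 classical ACT receptors, Olfr160 (chr9:37708964-37716250, M72) had 17.0, 23.7 and 37.3 normalized counts at 1% ACT, 34.9, 42.7 and 136 at 100% ACT, and 16.1, 25.7 and 21 without odor. The log2 fold change was 1.28 ± 0.38, higher in each litter (adjusted p = 0.123). Olfr145 had 46.3, 207 and 380.3 at 1% ACT and 72.3, 146 and 226 at 100% ACT, higher in litter 1 and lower in litters 2 and 3 (adjusted p = 0.866). Olfr151 (M71) had 1 count in all 6 libraries together and could not be compared. Its gene model was one that the authors corrected, and 32.9% of its 50-base stretches also occur in Olfr160 (10.2% of those of Olfr160 occur in Olfr151). Reads from shared stretches cannot be told apart.

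Lists of ORs linked to ACT in other experiments were then counted. They were made from other cells or mice, they overlap each other, and no test of the lists was run. Of the 86 ORs of the earlier pS6-IP-Seq study, 38 (44.2%) had an unadjusted p below 0.05 with a higher value, against 10.4% of all ORs. Their median log2 fold change was 0.84, beside 0.01 for all ORs. All of the 6 called ORs but Olfr506 are among the 86, so 5 of them. The median of the 86 was 0.29 in litter 1, 0.52 in litter 2 and 1.53 in litter 3. Without litter 3 the share was 10.5%, beside 3.77% of all ORs, and without litter 1 it was 54.7%, beside 13.3%.

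Of the ORs that respond to ACT in a luciferase assay in cultured cells, 30 of 106 (28.3%) were higher at an unadjusted p below 0.05. Among ORs tested in that assay without a response, 35 of 410 (8.54%) were. The median log2 fold changes were 0.44 and -0.11. Of the called ORs, Olfr895 and Olfr1449 responded in vitro, and the other 4 were tested and did not respond. Without litter 3 the shares were 5.66% and 3.41%. Of 44 ORs lowered by ACT in DREAM, 14 (31.8%) were higher at an unadjusted p below 0.05, beside 10.4% of all ORs, with a median of 0.33, and 1 of them, Olfr895, was called. Without litter 3 it was 5 of 44 (11.4%), beside 3.77% of all ORs.

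The ORs raised by 1% TMT were lower at 100% ACT in litter 1. Their median log2 ratio of 100% to 1% ACT was -1.18 in litter 1, beside 0.11 and 0.10 in litters 2 and 3. Olfr1395, an OR for TMT, had 1534 normalized counts in the 1% ACT library of litter 1, against 144 and 274 in the other litters, and 344, 158 and 138 at 100% ACT. Olfr1297 and Olfr165 were likewise highest in that library, with 339 and 122 normalized counts. At 100% ACT, litter 1 was again the highest, with 159 against 52.5 and 49.6 for Olfr1297. For Olfr165 it was 77.5 against 15.9 and 15.2. The TMT list had a median log2 ratio to the no odor mean of 1.12 in the 100% ACT library of litter 1. In litters 2 and 3 at 100% ACT it was 0.43 and 0.55. Olfr531 had 951, 238 and 229 at 1% ACT and 687, 508 and 439 at 100% ACT, higher in litters 2 and 3 and lower in litter 1. Olfr837 had 4 to 15 raw counts per library. Among the ORs that the paper discusses for TMT, which include Olfr376, Olfr506 was the one called here.

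The zone of an OR was taken from dissected dorsal and ventral epithelium, where all 3 libraries of a zone had to exceed all 3 of the other and the mean had to be at least 2-fold higher. Of 415 dorsal ORs, 66 (15.9%) were higher at an unadjusted p below 0.05 and 7 lower. Of 455 ventral ORs, 28 (6.15%) were higher and 11 lower, beside 10.4% and 2.39% of all ORs. Without litter 3, 21 dorsal (5.06%) and 9 ventral ORs (1.98%) were higher, beside 3.77% of all ORs. The medians of both were near 0, at 0.04 and 0.00, so that the dorsal list differed in its upper part, with an upper quartile of 0.79 against 0.38. Dorsal ORs took 25.4%, 31.2% and 40.3% of normalized counts at 100% ACT, 21.7%, 31.8% and 31.0% at 1% ACT and 26% to 32.0% without odor. Litters 1 and 3 thus had a higher dorsal share at 100% than at 1% ACT, and litter 2 did not. In litter 1 both shares lay below the no odor range, and the 1% library there was the one high in TMT ORs. Only the 100% ACT library of litter 3 lay above that range.

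Class I ORs, the group that resembles fish receptors and lies in a cluster on chromosome 7, included few that were higher. Of 121, 2 (1.65%) were higher and 2 lower at an unadjusted p below 0.05, while of 956 class II ORs 110 (11.5%) were higher and 24 lower. In every litter, 7 class I ORs (5.79%) were higher and 23 (19.0%) lower, beside 17.3% and 16.9% of all ORs. Their share of normalized counts was 7.18%, 7.73% and 6.28% at 100% ACT, 7.36%, 9.69% and 8.05% at 1% ACT, and 10.6% to 11.8% without odor. The median log2 fold change was -0.14.

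**Figure D4:**
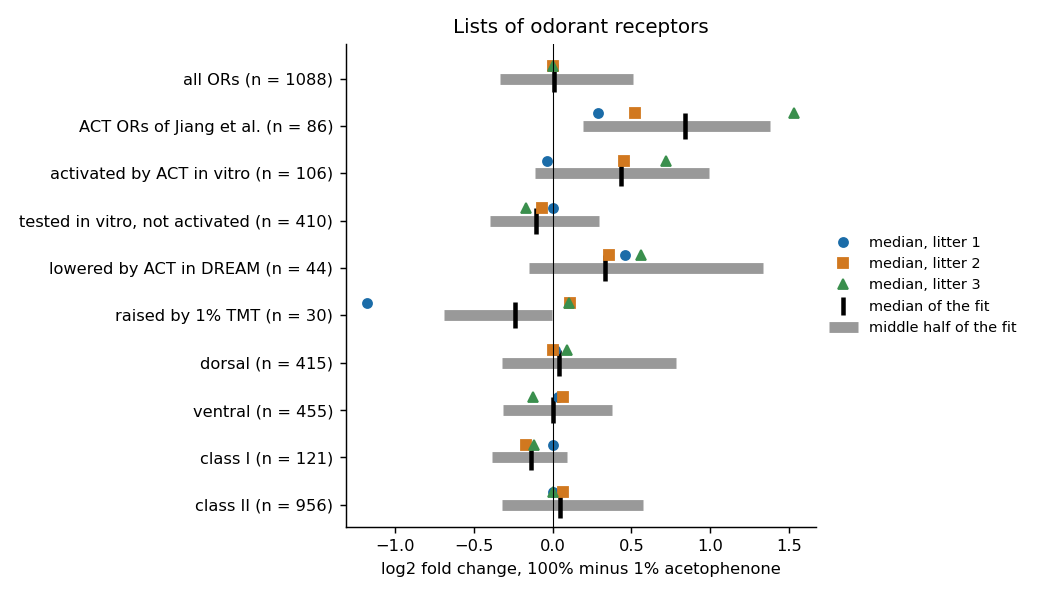
Log2 fold change from 1% to 100% ACT (x axis) for lists of ORs (rows, with their numbers). Gray bars span the lower to the upper quartile and black ticks mark the median of the fit, and colored markers give the median of each litter. The 86 ORs of Jiang et al. have the highest median (0.84), with litter 3 at 1.53, and ORs raised by 1% TMT have the lowest litter 1 median (-1.18).

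OR genes lie in clusters, and ORs within 1 Mb were grouped. The cluster at chr9:37708964-40190134 holds 95 ORs, among them Olfr160, Olfr895, Olfr898, Olfr901, Olfr923 and Olfr983. In it, 19 ORs (20%) were higher and 2 lower at an unadjusted p below 0.05, beside 10.4% and 2.39% of all ORs, with Olfr895 and Olfr901 on opposite sides. The cluster of 217 ORs at chr2:85330779-90292841, with Olfr1043 and Olfr1065, had 26 higher (12%) and 5 lower, near the shares of all ORs. A small cluster of 13 ORs at chr4:118658952-118938612 had the highest median of the clusters of 8 or more ORs, 0.94. By litter its median was -0.19, 1.22 and 1.58, so that litter 1 did not rise. In this cluster 5 ORs were higher at an unadjusted p below 0.05. Among them, Olfr1328, named for this after its values were seen, had 44.4, 33.6 and 51.2 normalized counts at 1% ACT and 56.8, 222 and 345 at 100% ACT (adjusted p = 0.078). Neighboring ORs are often alike in sequence, so their counts are not independent.

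Whether the change from 1% to 100% differed between ACT and TMT was tested in one fit of 12 libraries. No OR passed (smallest adjusted p = 0.272, edgeR's quasi-likelihood test), and at an unadjusted p below 0.05 the change was larger in ACT for 45 ORs (4.14%) and larger in TMT for 37 (3.4%). DESeq2 and edgeR's likelihood ratio test also called none. Without litter 1 of ACT, 18 ORs were called larger in ACT and 13 larger in TMT.

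The TMT mice share no library with the ACT mice, so their values come from other libraries than the calls above. Both ACT libraries of litter 1 were high in TMT ORs, however, and the part of this in any likeness of the odorants was not tested. Without litter 1, the log2 fold change in ACT was 1.75 for Olfr506 and 2.21 for Olfr1065. In the same fit, 57 of the 1088 ORs (5.24%) were called higher at 100% than at 1% TMT and 6 lower (0.551%). The 57 include 4 of the 6 ORs called in ACT. On the scale of these 12 libraries, Olfr506 rose from 50.2, 38.8 and 34.7 normalized counts at 1% TMT to 244, 318 and 383 at 100% TMT, by 2.93 ± 0.34 log2 (adjusted p = 4.18e-06). Olfr1065 rose from 39.1, 35.8 and 32.6 to 232, 347 and 356, by 3.11 ± 0.38 log2 (adjusted p = 7.6e-06). Olfr1449 rose by 3.04 ± 0.46 log2 (adjusted p = 0.000117) and Olfr895 by 2.27 ± 0.38 log2 (adjusted p = 0.000309). In each of these 4, undiluted odorant of either kind thus gave a higher value than its 1% dilution.

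Olfr397 and Olfr1043 were the other two. Olfr397 had 96.3, 95.6 and 95.5 normalized counts at 1% TMT and 138, 140.3 and 143 at 100% TMT, a log2 fold change of 0.55 ± 0.33 (adjusted p = 0.5). Its change was larger in ACT by 1.67 ± 0.47 log2 (unadjusted p = 0.00143, adjusted p = 0.272). Olfr1043 had a log2 fold change of 0.90 ± 0.37 in TMT (adjusted p = 0.217), and the difference from ACT was 1.25 ± 0.52 log2 (adjusted p = 0.533). Of the 113 ORs higher in ACT at an unadjusted p below 0.05, 31 (27.4%) were called higher in TMT, beside 5.24% of all ORs. Of the 26 lower in ACT, none was called higher in TMT and 1, Olfr56, was called lower. Olfr56 is among the ORs raised by 1% TMT, and its log2 ratios in ACT were -2.676, -0.63 and -0.695 in litters 1 to 3. Across the same 665 ORs as above, the 2 changes had a Pearson r of 0.499.

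**Figure D5:**
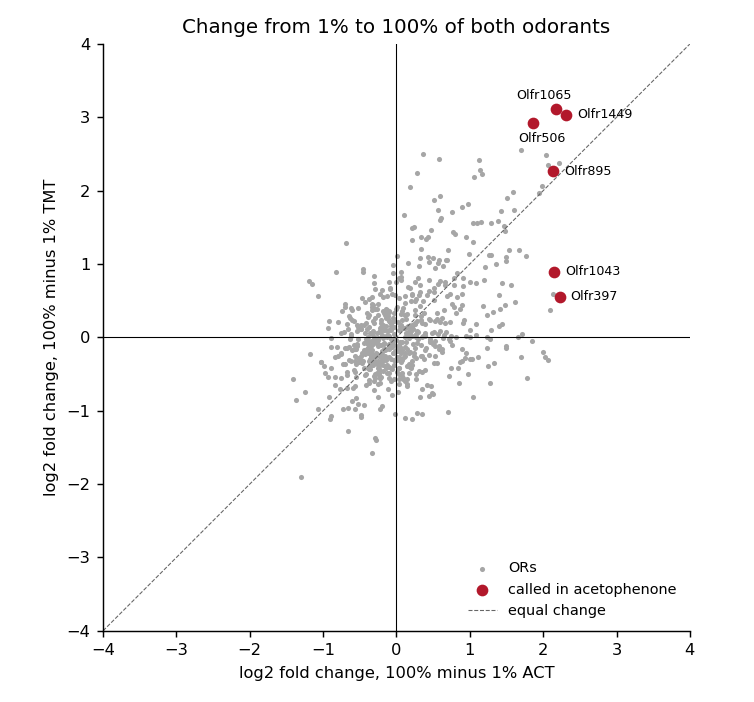
Log2 fold change from 1% to 100% ACT (x axis) and from 1% to 100% TMT (y axis) in one fit of 12 libraries, for 665 ORs (gray) and the 6 ORs called in ACT (red). The dashed line marks equal change. Olfr506, Olfr1065, Olfr1449 and Olfr895 lie near or above the line, and Olfr397 and Olfr1043 lie well below it.

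Olfr923 had fitted changes of opposite sign with the odorants, but in ACT it was not called and it rose in litter 1. It had 46.0, 62.9 and 25 normalized counts at 1% TMT and 110, 87.0 and 121 at 100% TMT, a log2 fold change of 1.29 ± 0.41 (adjusted p = 0.075), where in ACT it was -0.69. The difference of -1.97 ± 0.57 log2 did not pass (unadjusted p = 0.00211, adjusted p = 0.272).

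The 5 ORs with the highest total counts were Olfr140, Olfr536, Olfr743, Olfr15 and Olfr376. None of these 5 was called, and their log2 fold changes ran from -0.70 to 0.64. This did not hold for well-covered ORs in general. Of 269 ORs with mean counts from 62.5 to 1055.3, 4 were called higher. At an unadjusted p below 0.05, 38 of the 269 (14.1%) were higher and 11 (4.09%) lower, beside 10.4% and 2.39% of all ORs. Olfr140, a ventral OR, had 1438, 734 and 1612 normalized counts at 1% ACT and 736, 663 and 818 at 100% ACT, lower in every litter (log2 fold change -0.70 ± 0.32, adjusted p = 0.376). Olfr15 had 554, 651 and 619 at 1% ACT and 696, 1052 and 1161 at 100% ACT, with no overlap (log2 fold change 0.64 ± 0.31, adjusted p = 0.389). Olfr536 had a log2 fold change of 0.13 ± 0.30 and Olfr743 of -0.44 ± 0.33, both within the spread of their litters.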

How the data were processed

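Per the labels and the paper's methods, the authors aligned 50-base reads to GRCm38 (Ensembl 96) with STAR, using OR models with UTRs, and quantified them with RSEM. The deposited values are RSEM's expected counts, rounded to whole numbers by the authors. Their tables also hold fold changes, mean levels and p-values of comparisons with no odor, which were not used. The members and the lists were chosen with earlier results of these data known.

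The 6 columns of counts got TMM factors from their 1088 ORs. Tests used edgeR 4.0.16 under R 4.3.3 (glmQLFit, robust, and glmQLFTest, two-sided), with litter as a block and no filter, and p-values were adjusted by Benjamini-Hochberg over all ORs. ORs without a count (14) got a p of 1. Pairing comes from the methods, where replicates are littermates. Deviations from group means correlated at 0.304, 0.072 and 0.297 within litters and at -0.282 to 0.035 between litters. Such deviations sum to 0 over the 3 mice of a group, so the 2 sets of values are not independent and do not test the pairing. The common coefficient of variation was 0.321, with 2 residual degrees of freedom. The SE is the log2 fold change divided by the square root of F, so it restates the test. Litter ratios use a pseudocount of 1. The ACT and TMT changes were fitted in 12 libraries with litter within odorant. The test of TMT alone was added after seeing the data. DESeq2 1.42.0 and edgeR's likelihood ratio test were alternatives. The code was also run on simulated counts with less dispersion than these data and no litter effect, so that run does not bear on the calls. With the litter block, p-values rest on how far the change between concentrations varied between the 3 litters of an odorant. Differences shared by the mice of a litter do not enter.

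Named ORs were those past an adjusted p of 0.05, the 10 largest changes each way that held in every litter among ORs averaging 20 or more counts, the 5 with most counts, and ORs the paper discusses for ACT or TMT with the classical ACT receptors. Positions come from GENCODE M21, which places 1082 ORs uniquely. Class I is MOR families 1 to 42 on chromosome 7 by RefSeq synonyms (1077 ORs have a MOR name). Zones use 1087 ORs. The planned cell type markers were not run, because the tables used here list ORs alone. No OR sequence is shown.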

Additional observations from a re-analysis of the deposited data

How the results depend on the processing

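The count of 6 ORs called higher at 100% ACT became 0 with DESeq2's size factors in edgeR, with the total OR count as the only scaling, after filterByExpr and with all 18 ACT libraries in the fit. It was 5 with a mean count of at least 10 and 8 with the no odor libraries added, while edgeR's likelihood ratio test called 55 and DESeq2 called 17. Without the replicate block it was 0, and the smallest adjusted p was then 0.177. Leaving out a litter gave 0 to 84 higher and 0 to 6 lower. ORs called lower numbered 4 by the likelihood ratio test, 2 by DESeq2 and otherwise 0 with all litters. At an unadjusted p below 0.05, higher ORs ran from 41 to 145 without a litter. Lower ORs, 26 in the main setting, numbered 42 with DESeq2's size factors, 43 with total counts, 41 after filterByExpr, 43 with a mean count of at least 10, 44 by the likelihood ratio test and 48 with 18 libraries, and 17 to 33 without a litter. The cause of these differences was not tested. The difference between ACT and TMT gave 0 calls in every alternative run except without litter 1 of ACT. Without a litter of either odorant, the counts ran from 0 to 18 (larger in ACT) and from 0 to 13 (larger in TMT). Olfr1297 changed direction without litter 1, with a range of -0.61 to 0.33 log2 over the litters left out. The median of dorsal ORs, 0.04, was -0.007 with DESeq2's size factors, -0.022 with total counts, -0.020 after filterByExpr and -0.023 with a mean count of at least 10, and -0.026 to 0.035 without a litter. The median of class I ORs was -0.21 with total counts, -0.20 after filterByExpr and -0.22 with a mean count of at least 10, and -0.27 to -0.14 without a litter. No median was taken over the 3 classical ACT receptors, since Olfr151 has a single count. With 45655 to 69789 counts on 1088 ORs, changes of ORs under about 13 counts per library could not be resolved.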
